A study of Zea mays with 24 samples.

Results

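The drought response of the maize inbred line B104 was measured by RNA-seq in 4 leaf libraries, chosen by their labels out of 24 in the series, with 2 from plants under normal conditions and 2 from plants under drought stress. B104 is a transformable inbred and was labelled wild type, so neither group carried a transgene. The series also holds the overexpression line ZmNF-YB16 OE, made in B104 and used here with its own normal and drought libraries (4 in all). It is a single transgenic line. The inbreds W22 and DH4866, both labelled wild type, have 4 libraries each. By the labels all of these leaves were of the V4 stage, whereas the methods of the study describe ear leaves, taken after pollination from field plots kept dry or watered, for B104 and ZmNF-YB16 OE and potted V4 plants for W22. The stage of the B104 leaves is therefore uncertain. Each B104 library was described as a pool of leaves from several plants. P values below thus measure the spread between such pools, and whether the pools came from separate plots is not given in the sources used here.

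Drought lowers the water potential of leaf cells and raises abscisic acid (ABA), which closes stomata. In the core of the pathway, ABA receptors bind and inhibit clade A protein phosphatases 2C, SnRK2 kinases are released, and bZIP factors then switch on protective genes such as dehydrins. Maize is a C4 plant. In its mesophyll cells carbonic anhydrase, PEP carboxylase and pyruvate, orthophosphate dikinase (PPDK) fix carbon into C4 acids, and in its bundle sheath cells decarboxylases release the carbon dioxide to Rubisco. Prolonged drought is known to bring forward leaf senescence, in which chlorophyll and chloroplast proteins are broken down and their nitrogen is exported, largely as asparagine and glutamine.

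The deposited values are expected counts, in which RSEM shares out reads that fit several genes, and FPKM, which also divides by transcript length and library depth. Totals were 5448915 and 3429314 expected counts in the normal libraries and 5452687 and 5322652 in the drought libraries, so 3 counts corresponded to 0.55 to 0.875 CPM, counts scaled to a common library total. The C4 markers were among the most abundant transcripts of normal leaves, with PPDK (GRMZM2G306345) ranking first by FPKM and PEP carboxylase (GRMZM2G083841) ranking number 3. Of 23 genes described as seed or pollen proteins, 15 to 19 had counts in a library, and their summed FPKM was 158.18 and 185.15 in normal leaves and 135.26 and 143.22 under drought. Much of each sum came from 1 gene, as the highest member alone had 90.89 and 114.12 FPKM in normal leaves and 71.92 and 79.46 under drought. The normal pair differed from one another more than the drought pair, and a chi-squared test of their counts gave 3.407 per degree of freedom where the drought pair gave 1.328. One library stood apart. Among 40 genes over 4-fold apart between the normal replicates and above 20 CPM in one of them, 38 were higher in normal replicate 2, and 19 of the 40 carried a plastid or mitochondrial description. Rows with such a description took 0.66% of the counts of that library and 0.018% to 0.027% of the other 3. Only 3 genes were as far apart between the drought replicates. Results on organelle-encoded genes are therefore given with and without that library.

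Drought changed the level of 25.1% of the genes tested in B104 leaves. Of 21970 genes that passed edgeR's filter on low counts, 2663 rose (12.1%) and 2861 fell (13%), a differentially expressed gene (DEG) being one whose adjusted P was under 0.05 and whose level changed by more than 1 on the log2 scale. The median was 1.82 on the log2 scale for the DEGs that rose and -1.65 for those that fell. Fitted changes above 16-fold were found in 252 DEGs that rose and 171 that fell. Among all rises 371 had at most 3 counts in both normal libraries, and among all falls 155 had at most 3 in both drought libraries. Fitted sizes at such low counts are uncertain, and the numbers above 16-fold include such genes. The plot of change against mean level shows DEGs of both directions over nearly the whole range of levels. The groups did not overlap in 74.1% of all genes tested, which is the background for such statements on single genes. The split between directions depended on the scaling. TMM factors were 0.883 and 0.885 in the normal and 1.082 and 1.083 in the drought libraries. In the normal libraries 8.92% and 8.82% of all counts fell on the top 10 genes, and in the drought libraries 4.62% and 4.63%. How far these genes account for the factors was not tested. With library size alone 3940 genes rose and 2043 fell, since the median of all genes then shifted by 0.29 on the log2 scale. Changes are given below relative to the TMM-scaled median, which was 0.00. Leaving out normal replicate 2 gave 2642 rises and 2758 falls.

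**Figure D1:**
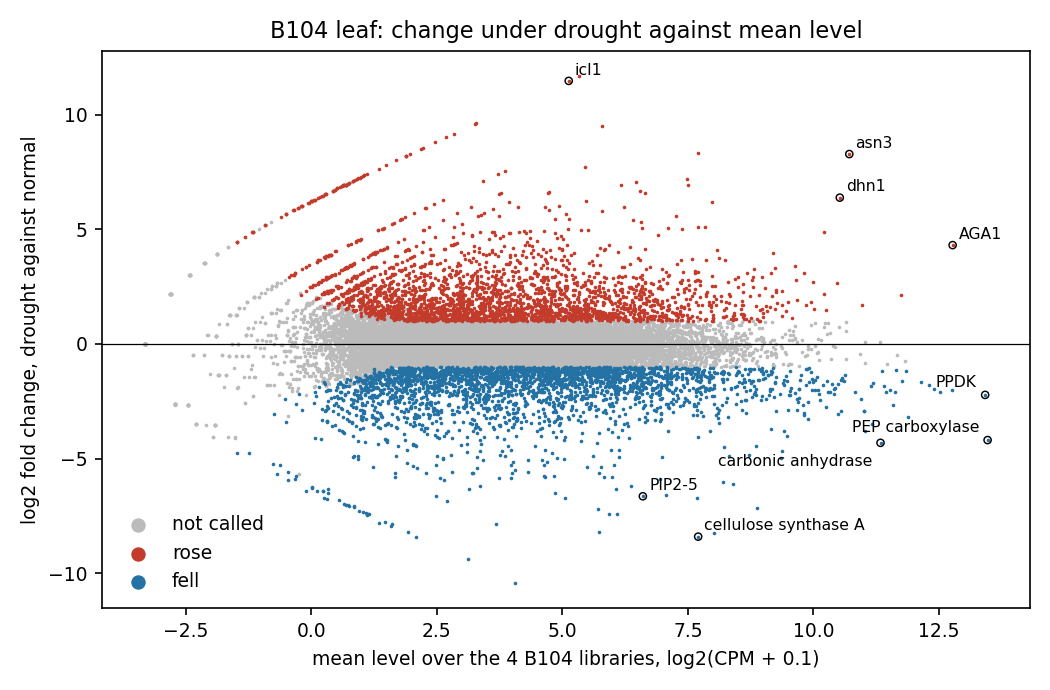
Log2 fold change of each tested gene in B104 under drought against normal conditions (y axis) plotted on its mean level over the 4 B104 libraries, as log2 of CPM plus 0.1 (x axis). Red points are the 2663 DEGs that rose, blue points the 2861 that fell and grey points the genes not called. Circled genes are described in the text, with a cellulose synthase A at -8.40. The position of a circled gene at 0 counts in one group, such as icl1, depends on the prior count and sets no size.

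Levels are given below as TMM-normalized CPM, first for the 2 normal and then for the 2 drought libraries, and fold changes are drought against normal on the log2 scale with their standard error (SE). In 136 of the 138 DEGs named in the text the groups did not overlap. The exceptions are the plastid gene copies GRMZM5G844143 and GRMZM5G884960. The largest adjusted P among the named DEGs was 0.0397. Counts of list members below stand against the background of 12.1% rises and 13% falls among all genes tested.

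The largest rises included genes of sugar transport, the glyoxylate cycle and asparagine synthesis. A sugar transporter of the SWEET family (GRMZM2G168365), whose relatives move sugars across membranes along their gradient, had no counts in either normal library and 84.2 and 76.5 CPM under drought, at least 99.7-fold higher than a floor of 3 counts per library. The isocitrate lyase gene icl1 (GRMZM2G056369), for a key enzyme of the glyoxylate cycle, was likewise at 0 in normal leaves and reached 70.8 and 68.5 CPM, at least 86.4-fold higher. Neither gene was detectable at this depth in normal leaves. Malate synthase (GRMZM2G102183), the other enzyme particular to that cycle and chosen after its values were seen, had 2.92 and 2.98 CPM in normal leaves and 359 and 356 under drought (log2 fold change of 6.91, SE 0.11, adjusted P = 7.77e-21). The gene asn3 (GRMZM2G053669) encodes asparagine synthetase, which transfers the amide nitrogen of glutamine to aspartate. Its level was 7.71 and 15.2 CPM in normal and 3375 and 3320.3 CPM in drought leaves (log2 fold change of 8.28, SE 0.10, adjusted P = 9.57e-23). A further asparagine synthetase gene (GRMZM2G078472) had 0 and 1 counts in the normal libraries and 105 and 115 CPM under drought, a ratio of 858 with a 95% counting interval of 154 to 33900.0. The drought libraries were high in both genes and the groups were far from overlapping.

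Other large rises touched amino acid, lipid and wall metabolism. Glutamate decarboxylase (GRMZM2G098875), which makes gamma-aminobutyric acid, had 0 and 1 counts in normal leaves and 31.8 and 25.8 CPM under drought, a ratio of 225 with a 95% counting interval of 40.2 to 8930.0. A 3-ketoacyl-CoA synthase (GRMZM2G156620), of the family that elongates the fatty acids of cuticular wax, went from 1 and 0 counts to 29.1 and 23.2 CPM, a ratio of 204 with a 95% counting interval of 36.4 to 8100.0. A glycine-rich wall protein (GRMZM2G121928) had 2 and 1 counts in normal leaves and 81.3 and 91.4 CPM under drought, a ratio of 225 with a 95% counting interval of 76.7 to 1090.0. The malic enzyme gene me4 (GRMZM2G118770), distinct from the C4 isoform, rose from 1.25 and 0.993 to 142 and 144 CPM (log2 fold change of 6.92). A beta-1,3-glucanase (GRMZM5G805609) rose from 0.834 and 1.99 to 179 and 172 CPM, by 7.07 (6.47 without normal replicate 1 and 7.68 without normal replicate 2). The 3 other genes among the 12 largest rises have no clear function. GRMZM2G078469, which carries the KEGG names of both a gamma-tubulin complex component and asparagine synthase, rose by 8.31, and GRMZM2G179462, with no function given, by 7.18. GRMZM2G390150, also without one, had 1 and 0 counts in normal leaves and 20.9 and 21.4 CPM under drought, a ratio of 165 with a 95% counting interval of 29.4 to 6560.0. Each was low in both normal libraries and high in both drought libraries.

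Among the largest falls were genes of the wall, of asparagine breakdown and of water transport. A gene with the KEGG names of cellulose synthase A and mixed-linked glucan synthase (GRMZM2G074546), which make wall polysaccharides, had 407 and 424 CPM in normal leaves and 1.53 and 0.871 under drought (log2 fold change of -8.40, SE 0.13, adjusted P = 2.73e-21). A cytochrome P450 (GRMZM2G034471) fell from 514 and 525 to 1.7 and 1.74 CPM, a change of -8.22. A pair of asparaginases (GRMZM2G531230 and GRMZM2G082032), which release ammonia from asparagine, fell by 7.41 and 6.73 on the log2 scale. GRMZM2G082032 went from 417 and 393 to 3.91 and 3.66 CPM. These asparaginases moved opposite to asn3. The plasma membrane aquaporin PIP2-5 (GRMZM2G178693), a water channel, dropped from 181 and 203 to 1.53 and 2.26 CPM (log2 fold change of -6.64, SE 0.15, adjusted P = 1.35e-18). CNR10 (GRMZM2G325477), of a family named for cell number regulators, dropped from 67.7 and 64.2 to 0.68 and 0.523 CPM. The next 3 genes are known here by their descriptions only. GRMZM2G179810, an adenine phosphoribosyltransferase by KEGG name, fell from 111 and 102 to 0.34 and 0.348 CPM. GRMZM2G114751, a Rab-type GTPase by KEGG name, fell from 100.3 and 108 to 0.68 and 0.697 CPM. GRMZM2G339866, with no function given, fell from 26.5 and 24.2 to 0.17 and 0 CPM. In all 3 the drought libraries were near the floor. The other 3 of the 12 largest falls need care. A psbA copy (GRMZM2G427369), for the D1 protein of photosystem II, had 19.2 and 1843 CPM in the normal libraries and 6.12 and 6.62 under drought, and its log2 fold change of -7.16 became -1.59 without normal replicate 2. AC208915.3 and AC212023.4 are rows named by a clone that can hold several gene models, and are not described as genes.

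Most photosynthesis genes fell. Of 76 tested genes for light-harvesting and photosystem proteins, 68 fell and 0 rose, against a background of 13% falls among all genes, and the median change over the list was -2.0 on the log2 scale. Without 7 rows of organelle description 61 of 69 fell, without normal replicate 2 60 of 77 fell and 3 rose, and with library size alone the median was -1.71. The light-harvesting protein Cab-m7 (GRMZM2G402936), the member with the highest FPKM, fell from 9609.8 and 9350.3 to 2169 and 2218 CPM (log2 fold change of -2.11, SE 0.04, adjusted P = 3.40e-20). A further chlorophyll a/b-binding protein (GRMZM2G429955) fell from 23.1 and 29.1 to 0.34 and 0.523 CPM. The plastid psbA copy GRMZM5G844143 had 9.8 and 1144 CPM in normal and 10.7 and 6.62 CPM in drought leaves, so its fold change rests on normal replicate 2 and was -0.17 without it (adjusted P = 0.761). Falls were nearly as frequent without the organelle-described rows.

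The C4 pathway fell unevenly. Among 44 tested genes described as C4 cycle enzymes or Rubisco, 16 fell and 5 rose, with a median of -0.65 (-0.35 with library size alone). PEP carboxylase (GRMZM2G083841), which fixes bicarbonate in the mesophyll, had 21628 and 21368 CPM in normal leaves and 1169.6 and 1179.9 under drought (log2 fold change of -4.19, SE 0.02, adjusted P = 1.29e-28). Carbonic anhydrase (GRMZM2G121878), which supplies that bicarbonate, fell from 4888 and 4954 to 247 and 249 CPM, by 4.31 on the log2 scale. Neither gene overlapped between the groups. PPDK (GRMZM2G306345), which regenerates the carbon acceptor, fell from 18158 and 17946 to 3880.0 and 3856 CPM, by 2.22, and NADP-malate dehydrogenase (GRMZM2G129513), which reduces oxaloacetate, fell by 1.57.

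On the bundle sheath side, PEP carboxykinase (GRMZM2G001696), a decarboxylase, fell from 5277 and 5341 to 832 and 843 CPM, by 2.66 on the log2 scale. The Rubisco small subunit genes GRMZM2G098520 and GRMZM2G113033 fell by 2.18 and 1.55, and a further copy (GRMZM2G181546) by 4.98. The main decarboxylase, NADP-malic enzyme (GRMZM2G085019), was the marker that moved least, with 3792 and 3806 CPM in normal and 2748 and 2722 CPM in drought leaves (log2 fold change of -0.47, SE 0.02, adjusted P = 1.93e-14), under the fold threshold of a DEG. FPKM carries no TMM factor, and on that scale NADP-malic enzyme fell less, from 1415.63 and 1421.61 to 1257.1 and 1245.67. Summed over the 4 mesophyll markers, FPKM was 18661.4 and 18502.5 in normal and 3357.0 and 3324.3 in drought leaves. Over the 4 bundle sheath markers it was 5706.6 and 5773.0 against 2456.1 and 2411.0. In bulk leaves, fewer cells of a type and less RNA per cell cannot be told apart. Of the 5 members of the C4 and Rubisco list that rose, none was a leaf C4 marker. They are me4, a PEP carboxylase of another gene (GRMZM2G069542, 35.9 and 39.1 to 230.0 and 239 CPM), 2 carbonic anhydrases (GRMZM2G145101, 50.7 and 57.6 to 200.2 and 195 CPM, and GRMZM2G414528, 228 and 216 to 686 and 718 CPM) and a Rubisco large subunit row of chloroplast description (GRMZM2G308907). The last had no counts in normal and 2.21 and 1.57 CPM in drought leaves, at least 2.34-fold higher than a floor of 3 counts per library. Its adjusted P of 0.0346 rose to between 0.0562 and 0.121 on leaving out any 1 of the 4 libraries, so that its call was lost. It and GRMZM2G414528 were named after their values were seen.

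**Figure D2:**
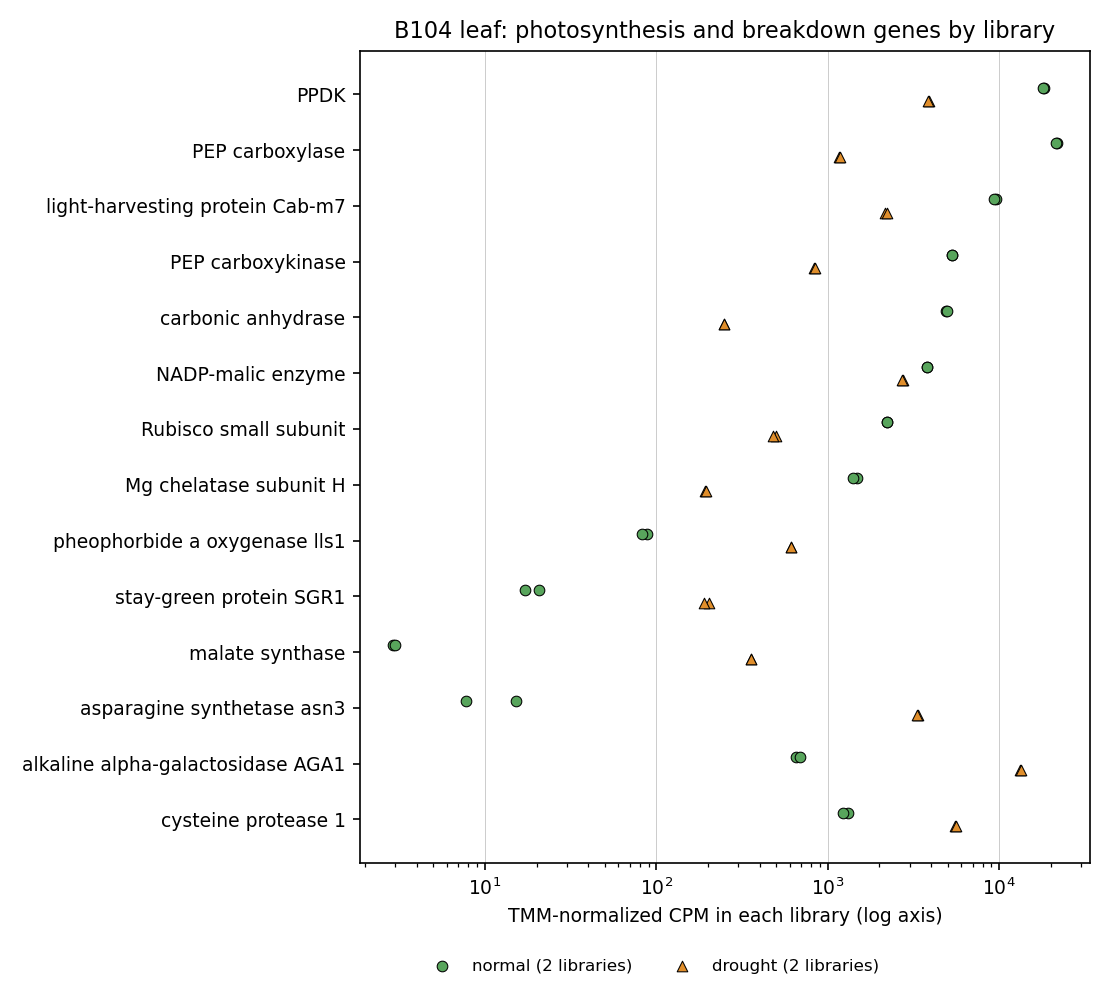
Level of 14 B104 genes in each library, as TMM-normalized CPM on a log axis (x axis), with 2 normal libraries as green circles and 2 drought libraries as orange triangles. Photosynthesis genes in the upper rows sit lower under drought, from PEP carboxylase at 1169.6 and 1179.9 CPM to NADP-malic enzyme, which moved least. The genes of breakdown and nitrogen metabolism shown in the lower rows sit higher. All of those shown rose, whereas 4 of 12 chlorophyll breakdown genes and 11 of 43 nitrogen assimilation genes fell. In no row do the groups overlap, which holds for 74.1% of all genes tested.

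Chlorophyll synthesis genes fell as well. Of 20 chlorophyll synthesis enzymes 14 fell and 0 rose, with a median of -1.32 (-1.02 with library size alone). Magnesium chelatase subunit H (GRMZM2G323024), at the branch point of chlorophyll and heme, fell from 1482 and 1400.3 to 192 and 196 CPM (log2 fold change of -2.90, SE 0.04). Protochlorophyllide reductases, which carry out the light-dependent step, fell by 3.34 (GRMZM2G036455) and 2.21 (GRMZM2G073351). Porphobilinogen synthase (GRMZM2G397247), the member with the highest FPKM, changed by -0.86 and did not reach the fold threshold. Ribosomal proteins of the organelle type followed, with 38 falls and 2 rises among 106 and a median of -0.41 (-0.12 with library size alone). The large-subunit protein L28 (GRMZM2G069141) fell from 224 and 221 to 23 and 20.4 CPM. A 30S protein S2 (GRMZM2G013798) had 3.13 and 50.6 CPM in the normal libraries, and its fall of 4.15 was -1.17 without normal replicate 2 (adjusted P = 0.18), no longer past the threshold.

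Chlorophyll breakdown genes moved both ways, with 5 rises and 4 falls among 12. The stay-green genes SGR1 (GRMZM2G103881) and SGR2 (GRMZM2G091837), whose products start the degradation of chlorophyll in senescing leaves, rose from 20.8 and 17.2 to 202 and 189 CPM and from 30.9 and 33.4 to 206 and 218 CPM. The pheophorbide a oxygenase lls1 (GRMZM2G339563), which opens the porphyrin ring, rose from 87.8 and 82.4 to 608 and 610.0 CPM (log2 fold change of 2.83, SE 0.05, adjusted P = 5.17e-20). SGR1, SGR2 and lls1 were thus high in the drought libraries. A second pheophorbide a oxygenase gene (GRMZM2G349062) fell from 420 and 439 to 148 and 149 CPM, by 1.53, so genes of that step moved in opposite directions. Chlorophyllase-2 (GRMZM2G127421) fell by 1.08 and was short of the threshold at -0.78 with library size alone. Of 29 autophagy genes, which serve the recycling of cytoplasm, 4 rose and 0 fell, a share of rises near the background of 12.1%. They were led by ATG13 (GRMZM2G109348, 20.8 and 18.5 to 74.3 and 76.8 CPM) and ATG7 (GRMZM2G005304, 14.6 and 18.2 to 52.2 and 51.6 CPM).

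A pair of breakdown genes, chosen after their values were seen, was among the most abundant transcripts by FPKM in drought leaves. The alkaline alpha-galactosidase AGA1 (GRMZM2G340656), which splits galactose from raffinose sugars, rose from 653 and 687 to 13264 and 13380.3 CPM (log2 fold change of 4.31, SE 0.03, adjusted P = 4.00e-28). Cysteine protease 1 (GRMZM2G166281) rose from 1304 and 1229 to 5533 and 5589.9 CPM. In both the drought libraries lay well above the normal ones.

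Nitrogen genes moved in both directions. Of 43 tested nitrogen assimilation genes 9 rose and 11 fell. The asparagine synthetase with the highest FPKM in the list (GRMZM2G003762) fell from 5284 and 5201 to 1721 and 1720.4 CPM while asn3 rose, so that genes of the same description moved in opposite directions. A nitrite reductase (GRMZM2G102959), which reduces nitrite to ammonium in plastids, rose from 2.92 and 3.64 to 65.5 and 63.4 CPM. Named transporters fell. Ammonium transporters GRMZM2G028736 and GRMZM5G883969 fell by 3.89 and 2.27 on the log2 scale, and the high-affinity nitrate transporter 2.5 (GRMZM2G455124) fell from 31.3 and 25.8 to 3.74 and 3.48 CPM.

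ABA genes did not rise as a group. Among 13 ABA synthesis genes 2 rose and 2 fell, against a background of 12.1% and 13% of all genes. The 9-cis-epoxycarotenoid dioxygenases (NCEDs) cleave carotenoids in the committed step of synthesis. The classical NCED gene vp14 (GRMZM2G014392) rose from 6.05 and 7.95 to 20.9 and 20.2 CPM (log2 fold change of 1.59, SE 0.18, adjusted P = 3.20e-07). Others of the same description fell, GRMZM2G110192 from 1434 and 1397 to 248 and 241 CPM and GRMZM2G150363 from 106 and 102 to 3.06 and 1.05 CPM. Fitted changes in the list ran from -5.64 to 3.66 on the log2 scale. Of the 2 rises only vp14 reached a mean of 5 CPM in its higher group. The list therefore held changes of both signs. Of 4 ABA 8'-hydroxylases, which inactivate the hormone, 1 rose and 1 fell, with a median of 0.83. GRMZM2G391684 rose from 1.88 and 0.662 to 3.23 and 3.48 CPM (adjusted P = 0.0397), a call lost without drought replicate 1 (0.0903) or 2 (0.123) or normal replicate 2 (0.228). GRMZM2G065928 fell from 798 and 779 to 297 and 316 CPM.

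Along the signaling chain, 2 receptors rose and 1 fell among 8. The receptor gene GRMZM2G165567 rose from 22.9 and 18.2 to 93 and 96.3 CPM, and GRMZM2G063882, the one with the highest FPKM, fell from 112 and 120.5 to 40.5 and 40.6 CPM. Protein phosphatases 2C leaned upward, with 14 rises and 3 falls among 62 (16 and 2 with library size alone). PP2C12 (GRMZM5G818101) rose by 4.19 on the log2 scale (SE 0.13), PP2C11 (GRMZM2G308615) from 23.8 and 14.2 to 152 and 149.6 CPM, and PP2C4 (GRMZM2G177386), the highest by FPKM, from 75.7 and 87.7 to 396 and 381 CPM. Of 11 SnRK2 kinases 1 rose, GRMZM2G180916 by 1.04 (0.97 and under the fold threshold without normal replicate 2), and 1 fell, SnRK2.5 (GRMZM2G110908) by 1.54.

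Genes for protective proteins had the highest share of rises among the 45 lists. Of 9 tested late embryogenesis abundant (LEA) proteins and dehydrins, which shield proteins and membranes in drying cells, 7 rose (9 with library size alone), none fell and the median change was 4.97 on the log2 scale. The dehydrin gene dhn1, also called rab17 (GRMZM2G079440), had 30.2 and 41.7 CPM in normal and 2904 and 2916 CPM in drought leaves (log2 fold change of 6.38, SE 0.07, adjusted P = 1.45e-23). The files describe this row as a plastid RNA polymerase, and the dehydrin name is that of RefSeq. dhn2 (GRMZM2G373522) rose from 5.42 and 8.94 to 493 and 504 CPM, and the group 3 LEA gene mlg3 (GRMZM2G096475) from 2.5 and 1.99 to 148 and 146 CPM. Dehydrin 13 (GRMZM2G169372), the highest by FPKM, was already at 1106 and 1082 CPM in normal leaves and reached 2107 and 2155, a change of 0.96 that stayed just under the fold threshold and passed it with library size alone (1.25) or without normal replicate 1.

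Osmolyte genes rose more often than they fell. Among 35 genes for proline, raffinose and trehalose synthesis 16 rose and 5 fell, with a median of 0.67. Galactinol synthase gols2 (GRMZM5G872256), the entry into raffinose synthesis, rose from 639 and 648 to 1781 and 1785 CPM. Trehalose genes split, with the synthase TPS9 (GRMZM2G122231) rising from 24 and 23.8 to 227 and 228 CPM and GRMZM2G001304 of the same family falling from 47.5 and 53.3 to 1.53 and 1.22 CPM. Of 27 aquaporins 8 fell and 0 rose (7 and 2 with library size alone), and their median of -0.01 turned to 0.28 with library size alone. After PIP2-5 the largest falls were those of the tonoplast channel TIP2-1 (GRMZM2G027098, 187 and 181 to 16 and 18.6 CPM) and of NIP2-1 (GRMZM2G028325), a channel of the silicon transporter type, which went from 145 and 137 to 20.9 and 20.7 CPM. PIP1-1 (GRMZM2G174807), the highest by FPKM, changed by 0.43 and was not a DEG.

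**Figure D3:**
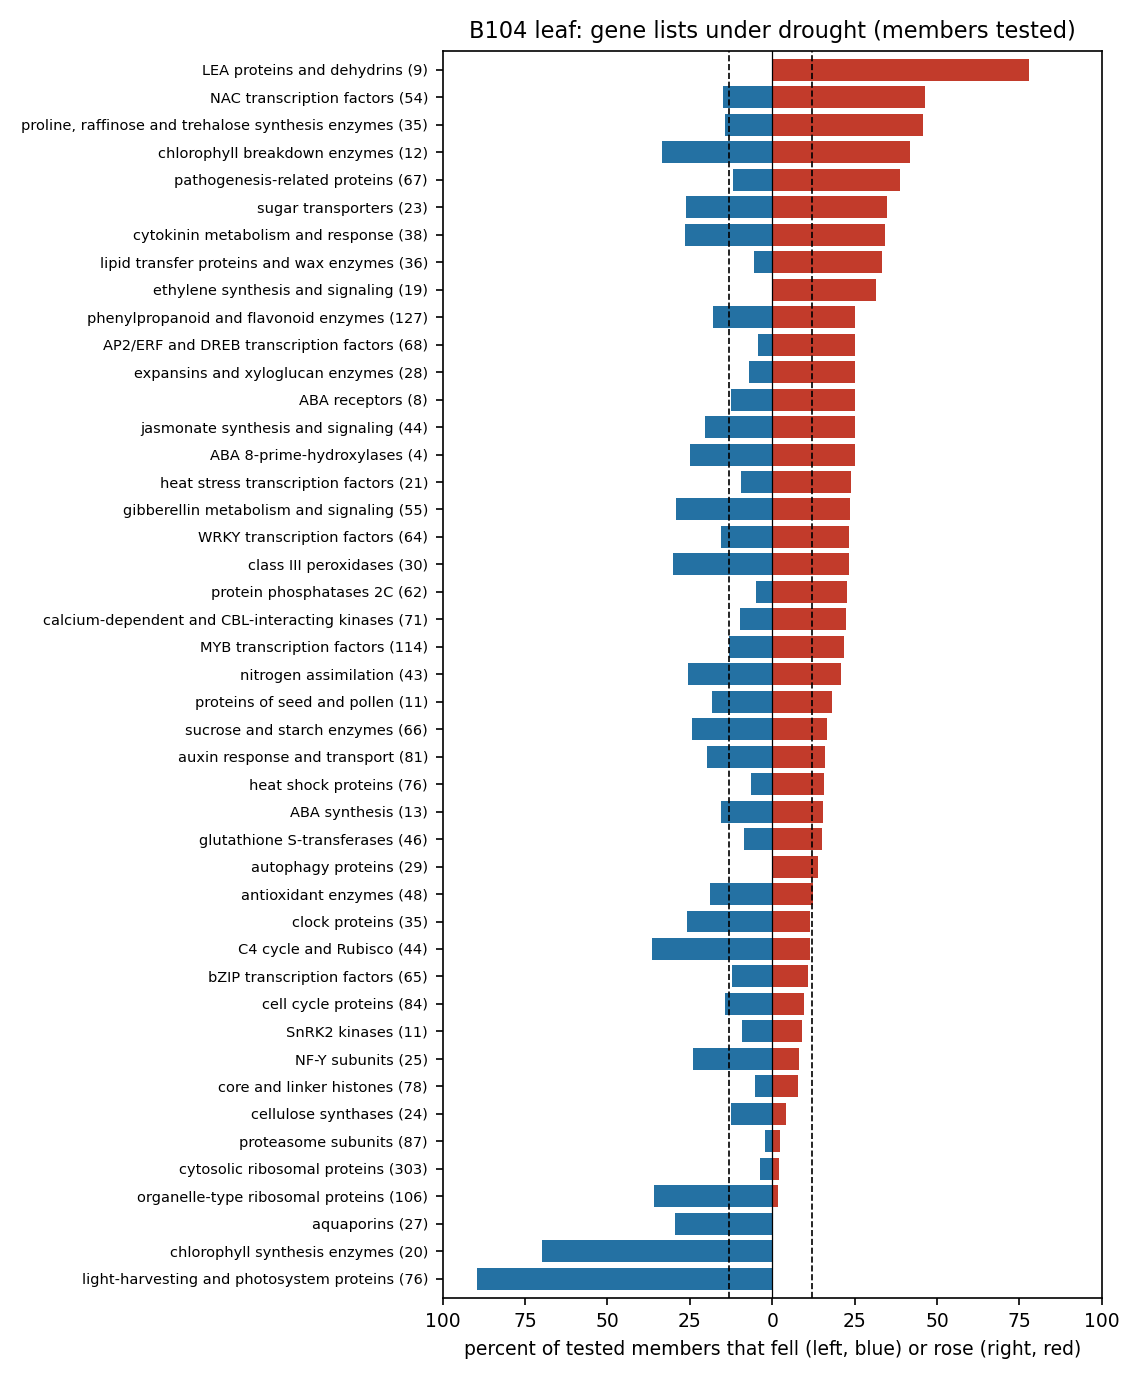
Percent of the tested members of each of 45 gene lists that rose (red bars, right) or fell (blue bars, left) in B104 under drought, with the number of members tested in brackets. Dashed lines mark the share of all tested genes that rose, 12.1%, and fell, 13%. The longest bars are those of light-harvesting and photosystem proteins on the left and of LEA proteins and dehydrins on the right.

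Transcription factor families differed in balance. NAC factors, several of which regulate senescence and drought responses, had 25 rises and 8 falls among 54 and a median of 0.66. GRMZM2G114850 rose from 5.63 and 5.63 to 184 and 189.5 CPM (log2 fold change of 5.04, SE 0.13, adjusted P = 7.84e-18), and NAC75 (GRMZM2G100583), the highest by FPKM, from 109 and 109.9 to 611 and 619.6 CPM. The largest fitted rise of the family, in GRMZM2G018553, rests on 1 library, since its drought values were 27.9 and 0.174 CPM, and without drought replicate 1 its adjusted P was 0.364. GRMZM2G074358 fell from 25.6 and 22.8 to 1.19 and 1.74 CPM. AP2/ERF and DREB factors leaned upward as well, with 17 rises and 3 falls among 68. GRMZM2G055180 rose from 2.92 and 1.32 to 21.6 and 19.5 CPM and EREB34 (GRMZM5G846057), the highest by FPKM, from 208 and 191 to 490.2 and 478 CPM.

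WRKY factors, known from defence and senescence, had 15 rises and 10 falls among 64, and MYB factors 25 and 15 among 114. The background over all genes was 12.1% rises and 13% falls. The WRKY gene GRMZM2G060918 went from 3 and 2 counts to 13.6 and 12.9 CPM, a ratio of 20.7 with a 95% counting interval of 8.69 to 64.7. The MYB gene GRMZM2G160840 rose from 1.25 and 0.662 to 19.9 and 18.3 CPM, and a RADIALIS-like one (GRMZM2G114503) fell from 43.6 and 53.3 to 0.68 and 1.05 CPM. The bZIP family, which holds the ABA response element factors, was near the background, with 7 rises and 8 falls among 65 (15 and 6 with library size alone). bZIP45 (GRMZM2G093020) rose from 14.6 and 23.5 to 117 and 121 CPM and bZIP84 (GRMZM2G361611) fell from 28.8 and 30.8 to 1.7 and 3.14 CPM. Of 21 heat stress factors 5 rose and 2 fell, and of 25 NF-Y subunits 2 rose and 6 fell. Among 35 clock proteins 9 fell and 4 rose (6 and 8 with library size alone), and the LHY gene with the highest FPKM (GRMZM2G014902) fell from 1876 and 1818 to 602 and 622 CPM. The hour of sampling is not given in the sources used here.

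The other hormone lists are given against the background of 12.1% rises and 13% falls over all genes. Ethylene genes had 6 rises and no fall among 19. An ACC oxidase (GRMZM2G144668), which makes ethylene, rose from 90.5 and 81.4 to 726 and 734 CPM (log2 fold change of 3.08, SE 0.06, adjusted P = 2.58e-19). Jasmonate genes split, with 11 rises and 9 falls among 44. The lipoxygenase lox3 (GRMZM2G109130) and the allene oxide synthase aos1 (GRMZM2G067225) rose from 3.54 and 8.61 to 53.4 and 51.6 CPM and from 9.8 and 7.61 to 74.3 and 77.5 CPM. The lipoxygenase lox10 (GRMZM2G015419), the highest by FPKM and known for green leaf volatiles, fell from 11084 and 11012 to 2799.5 and 2770.4 CPM, and the JAZ repressor gene TIFY16 (GRMZM2G101769) from 219 and 203 to 39.6 and 39.2 CPM. The lipoxygenases of the list thus moved in opposite directions.

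Growth hormone lists were mixed, against the same background of 12.1% rises and 13% falls. Cytokinin genes had 13 rises and 10 falls among 38. Type-A response regulators, which cytokinin induces, included RR7 (GRMZM2G096171) going from 59.6 and 52.3 to 1.36 and 0.697 CPM and crr2 (GRMZM2G392101) from 28.4 and 36.1 to 0.51 and 0.871 CPM. A further regulator, crr1 (GRMZM2G040736), had 6.67 and 4.97 CPM in normal leaves and no counts under drought, at least 11.3-fold lower. CKX4 (GRMZM5G817173), a cytokinin dehydrogenase, of the enzymes that degrade the hormone, rose from 1.46 and 0.331 to 9.02 and 7.84 CPM. Gibberellin genes had 13 rises and 16 falls among 55. A gibberellin 20-oxidase (GRMZM2G368411), of the family that makes the active hormone, had 5.0 and 5.63 CPM in normal leaves and no counts under drought, at least 10.3-fold lower. A DELLA protein (GRMZM2G013016), of the family that represses growth, rose from 0.834 and 0.331 to 19.7 and 19.9 CPM, and GID1-type receptors went both ways, GRMZM2G124229 from 2.08 and 1.99 to 40.7 and 39.4 CPM and GRMZM2G164454 from 58.4 and 55.3 to 0.34 and 0.871 CPM. Auxin genes had 13 rises and 16 falls among 81 (19 and 8 with library size alone), so their balance depended on the scaling. The carrier gene PIN10a (GRMZM2G126260) rose by 2.92 and PIN5c (GRMZM2G040911) changed by -3.40 (-4.56 without drought replicate 1 and -2.77 without drought replicate 2).

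Sucrose and starch genes changed in both directions. Of 66 sucrose and starch enzymes 11 rose and 16 fell (15 and 12 with library size alone). Sucrose-phosphate synthase sps1 (GRMZM5G875238), which makes sucrose for export, fell from 884 and 899 to 40 and 41.5 CPM (log2 fold change of -4.45, SE 0.05, adjusted P = 2.03e-23). The small subunit of ADP-glucose pyrophosphorylase (GRMZM2G163437), the committed step of starch synthesis, fell by 2.49 and the granule-bound starch synthase GBSSIIa (GRMZM2G008263) by 2.44. Sucrose synthase sh1 (GRMZM2G089713), which cleaves sucrose, rose from 141 and 135 to 1452 and 1449.7 CPM. A beta-amylase (GRMZM2G025833), which breaks down starch, rose from 119 and 120.2 to 1032 and 1008 CPM, while the one with the highest FPKM (GRMZM2G450125) fell from 1376 and 1379 to 585 and 596 CPM. Starch breakdown genes were therefore not uniform. Of 23 sugar transporters 8 rose and 6 fell. Below the SWEET gene described above, GRMZM2G000812 rose from 25.6 and 28.5 to 186 and 161 CPM and GRMZM2G179679 fell from 52.1 and 55.3 to 5.61 and 5.4 CPM. The phloem loader sut1 (GRMZM2G034302), highest by FPKM, changed by -0.89 and was not a DEG.

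Of 48 antioxidant enzymes, which remove reactive oxygen, 6 rose and 9 fell (7 and 7 with library size alone), against a background of 12.1% and 13%. Catalase genes crossed, with cat1 (GRMZM2G088212) rising from 125 and 124 to 408 and 409.9 CPM and catalase3 (GRMZM2G079348) falling from 3363 and 3302 to 626 and 639 CPM. Glutathione S-transferases had 7 rises and 4 falls among 46 (14 and 2 with library size alone), and gst23 (GRMZM2G416632), the highest by FPKM, rose from 164 and 159 to 704 and 673 CPM. Class III peroxidases had 7 rises and 9 falls among 30, with GRMZM2G095404 going from 1.04 and 1.32 to 14.5 and 12.9 CPM and GRMZM2G365774 from 4.17 and 7.95 to 0.17 and 0.174 CPM. Heat shock proteins had 12 rises and 5 falls among 76 (24 and 2 with library size alone). An HSP70 gene (GRMZM2G366532) rose from 48.2 and 50 to 264 and 257 CPM, and a plastid ClpB chaperone (GRMZM2G130121) fell from 135 and 106 to 49.8 and 50.9 CPM, short of the threshold with library size alone (-0.98).

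Pathogenesis-related proteins had 26 rises and 8 falls among 67 and a median of 0.57. The chitinase genes chiB (GRMZM2G005633) and chiA (GRMZM2G051943), whose products cleave fungal chitin, rose from 14.2 and 11.6 to 449.6 and 438 CPM and from 9.59 and 7.28 to 228 and 236 CPM. PR-5 (GRMZM2G402631), the highest by FPKM, went the other way, from 1361 and 1328 to 81.1 and 86.4 CPM (log2 fold change of -4.0, SE 0.05, adjusted P = 2.72e-22). Lipid transfer and wax genes had 12 rises and 2 falls among 36. A lipid transfer protein (GRMZM2G387360) rose from 6.67 and 5.63 to 299 and 299 CPM, and plt1 (GRMZM2G101958), the highest by FPKM, from 441 and 427 to 1415 and 1393 CPM. Phenylpropanoid and flavonoid enzymes had 32 rises and 23 falls among 127 (46 and 17 with library size alone). Cinnamate 4-hydroxylase (GRMZM2G010468), an early step toward lignin, rose from 6.88 and 5.96 to 99.8 and 93.9 CPM, whereas an anthocyanidin reductase by KEGG name (GRMZM2G131243) fell from 243 and 245 to 7.31 and 8.54 CPM. Calcium-dependent and CBL-interacting kinases with their CBL partners had 16 rises and 7 falls among 71, with CBL10 (GRMZM2G116584) rising from 16.1 and 17.9 to 81.3 and 84.8 CPM.

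Expansins and xyloglucan enzymes, which loosen the wall, had 7 rises and 2 falls among 28. A xyloglucan transferase (GRMZM2G364748), both the largest rise and the highest by FPKM, rose from 24 and 32.1 to 353 and 357 CPM, and an expansin (GRMZM2G013002) from 19.4 and 18.5 to 186 and 184 CPM. Cellulose synthases had 1 rise and 3 falls among 24, against a background of 12.1% and 13%. Falls were thus no more frequent than among all genes. GRMZM2G014558, the highest of them by FPKM, fell from 531 and 521 to 89.3 and 89.9 CPM.

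Among housekeeping lists, those of cytosolic ribosomal proteins, proteasome subunits and histones held fewer DEGs than the background of 25.1% over both directions, and that of cell cycle proteins held a share near it. Of 303 cytosolic ribosomal proteins 6 rose and 11 fell, with a median of -0.27 that turned to 0.02 with library size alone. Proteasome subunits had 2 rises and 2 falls among 87, histones 6 and 4 among 78 (13 and 2 with library size alone), and cell cycle proteins 8 and 12 among 84 (13 and 6 with library size alone). The 45 lists together held 799 of the 5524 DEGs. Medians of 14 of them changed sign with library size alone, and for these no direction of the family as a whole is stated.

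Compared with ZmNF-YB16 OE, which was sequenced in the same set and carries the added NF-YB gene in the B104 background, most of the B104 response was shared. In that line 2479 genes rose and 2609 fell, which is 11.3% and 11.9% of all genes tested. Of the B104 rises 1634 were also called there, which is 61.4% of the B104 list and 65.9% of the OE list, and of the falls 1725, which is 60.3% and 66.1%. Opposite calls were made in 44 genes. The difference between the responses was tested in the same fit, and 771 genes (3.51%) responded more positively and 709 (3.23%) more negatively in B104, which is 6.74% in either direction. DESeq2 called 430 and 380, and edgeR without normal replicate 2 of B104 called 774 and 652.

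The LEA and dehydrin list differed between the lines, as its median was 4.97 in B104 and 0.93 in ZmNF-YB16 OE, and 4 of 9 members responded more positively in B104. In the OE line 4 of the 9 rose and 0 fell. Of the genes described next, mlg3 and Lea5 were chosen after their values were seen. The group 3 gene mlg3 (GRMZM2G096475) had 6.13 and 6.48 CPM in normal and 8.45 and 7.94 CPM in drought leaves of the OE line, against the rise from 2.5 and 1.99 to 148 and 146 CPM in B104 (difference of 5.60 on the log2 scale, SE 0.29, adjusted P = 3.07e-11). Lea5 (GRMZM2G099003) had 171 and 163 and then 303 and 301 CPM in B104 and 320.0 and 316 and then 268 and 265 CPM in the OE line, and its response differed by 1.11 (adjusted P = 9.81e-10). For dhn1 (GRMZM2G079440), with 36.8 and 36.1 and then 1844 and 1796 CPM in the OE line, the difference of 0.73 was below the fold threshold. The members differed among themselves in how far the lines were apart.

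**Figure D4:**
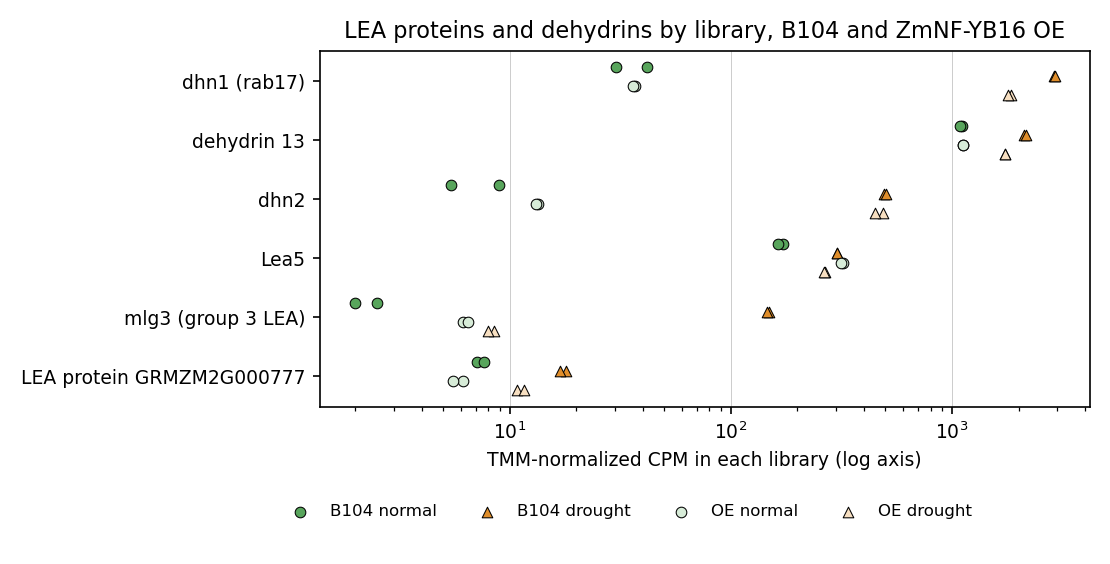
Level of 6 LEA and dehydrin genes in each library of B104 (dark colours) and ZmNF-YB16 OE (pale colours), as TMM-normalized CPM on a log axis (x axis), with normal libraries as circles and drought libraries as triangles, 2 of each. For mlg3 (GRMZM2G096475) the 2 drought libraries of B104 lie at 148 and 146 CPM and those of the OE line at 8.45 and 7.94 CPM, whereas for dhn2 the drought libraries of both lines lie close together.

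Photosystem genes had medians of -2.0 and -1.62 and 2 of 76 members responding more negatively in B104. The largest differences were found elsewhere. The asparagine synthetase GRMZM2G078472 had 0.575 and 0.925 CPM in normal and 4.64 and 4.14 CPM in drought leaves of the OE line, against 0 and 1 counts and then 105 and 115 CPM in B104 (difference of 6.95, SE 1.01, adjusted P = 4.66e-05). CNR10 (GRMZM2G325477) fell in B104 and went from 39.6 and 39.1 to 37.4 and 30.4 CPM in the OE line, a difference of -6.51 (adjusted P = 1.47e-12). GRMZM2G078725, described as a microtubule-associated TORTIFOLIA1 protein, rose in B104 from 2.29 and 1.32 to 42.9 and 42.8 CPM and had 2.49 and 1.62 and then 0.828 and 0.863 CPM in the OE line. GRMZM2G358076, described as the rRNA processing protein PNO1, was at 40.2 and 34.4 and then 21.6 and 17.9 CPM in B104 and went from 15.5 and 16.7 to 0 and 0.173 CPM in the OE line. The size of the last 2 of the 6 largest differences rests on single libraries. They are the psbA copy GRMZM2G427369, where the normal libraries of B104 had 19.2 and 1843 CPM, and GRMZM2G334216, where the drought libraries of the OE line had 0 and 5.35 CPM. The difference in GRMZM2G427369 was -8.23, it was -2.64 without normal replicate 2 of B104, and its adjusted P passed 0.05 without drought replicate 1 (0.0575) or 2 (0.0879) of the OE line. That in GRMZM2G334216 was -8.01, it was -1.25 without drought replicate 2 of the OE line (adjusted P = 1) and -7.99 without its normal replicate 1 (adjusted P = 0.0668).

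Against the inbreds W22 and DH4866, fitted jointly with B104, fewer of the B104 calls were shared. Sequencing set and depth differ along with the line. For W22 so do the growing place, stage, RNA extraction and platform that the methods give. None of these can be told apart from the line. Totals over the 27428 genes of the joint table were 3331127 to 5306470 in B104 and 20207815 to 20629974 in the others. The difference in response was called in 35.9% of 25110 genes against W22 and in 33.6% against DH4866. After thinning the W22 and DH4866 libraries to the mean total of B104 the counts were 3361 higher and 4200 lower against W22, and 3116 and 3895 against DH4866. In the joint fit 2482 genes rose in B104 (9.88%), and 27.2% of these also rose in W22 and 16.4% in DH4866, which is 16.9% and 12.8% of the rises there. Of 3235 falls (12.9%) 17.6% were shared with W22 and 14.5% with DH4866, which is 16.8% and 16.2% of the falls there. Over all genes of the joint fit 15.9% rose and 13.5% fell in W22, and 12.7% and 11.6% in DH4866. The shares in common with DH4866 lay little above this background. DEGs of opposite sign numbered 796 against W22, where 306 B104 rises fell and 490 B104 falls rose. Against DH4866 they numbered 854, with 393 and 461 in the same order, while 470 B104 falls also fell there. All 3 inbreds shared 288 rises and 282 falls.

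Photosynthesis genes marked the contrast. Of 78 light-harvesting and photosystem genes in the joint fit 69 fell and none rose in B104, 1 fell and 6 rose in W22 and 1 fell and 4 rose in DH4866, with medians of -2.15, 0.44 and 0.21. Over all genes of that fit 9.88% rose and 12.9% fell in B104, 15.9% and 13.5% in W22 and 12.7% and 11.6% in DH4866. Calls of photosystem genes in W22 and DH4866 were thus rarer than among all genes, in both directions. PEP carboxylase (GRMZM2G083841), which fell in B104, had 29718 and 29176 CPM in normal and 26068 and 26099.7 CPM in drought leaves of W22, and 30246 and 30084 and then 28518 and 29054 CPM in DH4866. Its response differed by -4.08 from W22 (SE 0.04, adjusted P = 7.00e-23) and by -4.19 from DH4866. Of 328 cytosolic ribosomal proteins 146 rose and 22 fell in W22, against 5 and 16 in B104. Of 10 LEA and dehydrin genes 7 rose in B104, 4 in W22 and 1 in DH4866, where 4 fell.

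Gene by gene, shared and opposite responses occurred side by side. Asn3 (GRMZM2G053669) rose in all 3 inbreds, from 1.11 and 1.04 to 111 and 103.8 CPM in W22 and from 0.589 and 0.799 to 64.7 and 64 CPM in DH4866. Icl1 (GRMZM2G056369) rose in W22 as well, from 7.4 and 8.75 to 143 and 144 CPM. Both genes lie among the largest rises of B104. Glutamate decarboxylase (GRMZM2G098875) fell in both other inbreds, from 13.8 and 13.7 to 0.129 and 0 CPM in W22 and from 11.3 and 9.98 to 0.526 and 0.702 CPM in DH4866, and its response in B104 was more positive by 15.16 and 11.70 on the log2 scale. The asparagine synthetase GRMZM2G078472 fell in W22 from 165 and 154 to 22.5 and 20.7 CPM (difference of 12.42), and the glycine-rich protein GRMZM2G121928 fell in DH4866 from 9.96 and 9.07 to 0.175 and 0.117 CPM (difference of 13.64).

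On the negative side, the organelle-type ribosomal protein L28 (GRMZM2G069141) had 0.408 and 0.638 CPM in normal and 160.4 and 159.6 CPM in drought leaves of W22, a difference of -11.65. GRMZM2G140223, with no function given, was at 0 in normal leaves of both inbreds and at 18.2 and 19.4 CPM in W22 and 13.7 and 13.4 CPM in DH4866 under drought. GRMZM2G071808, described as a UBR2-type ubiquitin ligase, had 0 and 0 and then 12 and 11.4 CPM in W22. A heparanase-type gene (GRMZM2G125823) fell in B104 from 82.8 and 72.8 to 4.76 and 3.66 CPM and had 0.118 and 0.285 and then 35.7 and 36.4 CPM in DH4866. Fitted differences against groups at or near 0 counts depend on the prior count and set no size.

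**Figure D5:**
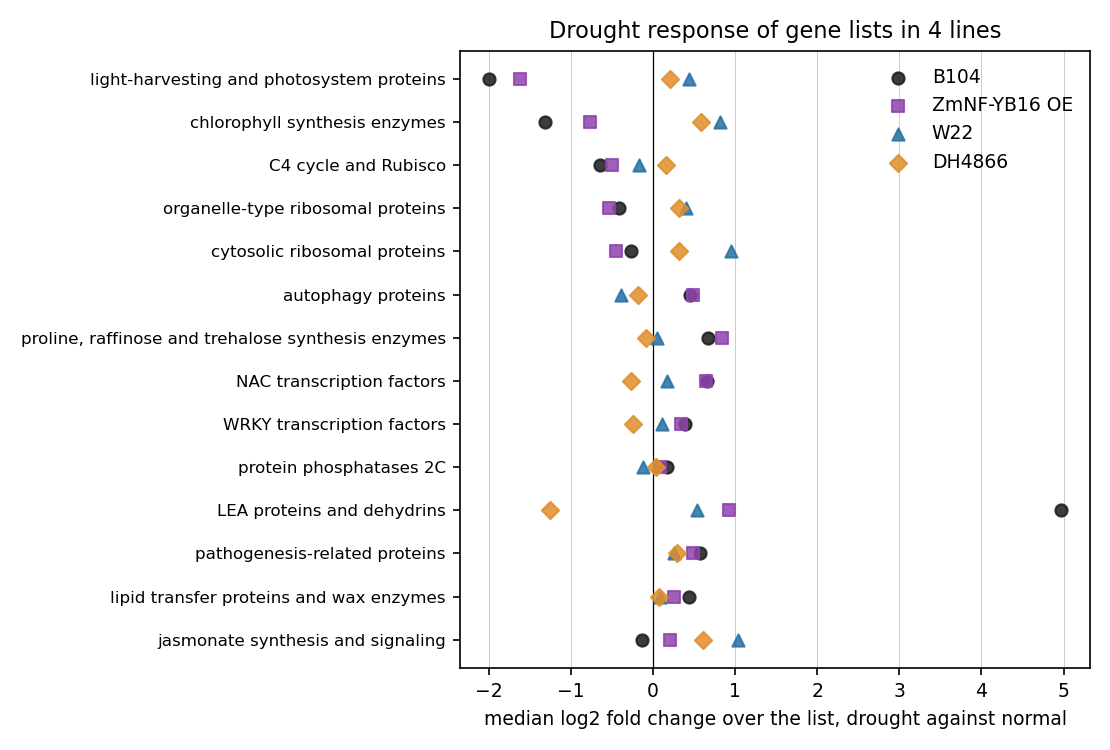
Median log2 fold change under drought over the members of 14 gene lists (x axis) in B104 (black circles), ZmNF-YB16 OE (purple squares), W22 (blue triangles) and DH4866 (orange diamonds), each line against its own normal libraries. B104 and ZmNF-YB16 OE both lie below 0 for photosystem proteins, at -2.0 and -1.62, where W22 and DH4866 lie at 0.44 and 0.21. LEA proteins and dehydrins lie at 4.97 in B104 and at 0.93 in ZmNF-YB16 OE.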

How the data were processed

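RNA-seq of leaves was analysed in the 4 B104 libraries and, for comparison, in 4 libraries each of ZmNF-YB16 OE, W22 and DH4866. The authors filtered reads with SOAPnuke, mapped them with HISAT and Bowtie2 to the B73 V3 (5b+) gene set and estimated expected counts with RSEM. The deposited expected counts were rounded to whole numbers. The authors also deposited FPKM, in which values below 0.01 are not listed and were taken as 0. Strandedness of the counting is not given in the sources used here, so overlapping genes and near-identical copies are uncertain. For 81 tested genes the counts equal those of another gene in every library.

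Counts were filtered with filterByExpr, scaled by TMM and tested with the quasi-likelihood test of edgeR 4.0.16 in R 4.3.3, with Benjamini-Hochberg adjustment over all genes tested. B104 and ZmNF-YB16 OE (8 libraries, 4 groups) shared one fit, with a biological coefficient of variation of 6.18%, and B104, W22 and DH4866 (12 libraries, 6 groups) another, with 5.47%. Adjusted P values in the text come from these fits. The test of the B104 contrast was checked on simulated data. There a small set of genes was changed by the same factor up or down, with one spread for all genes. The simulation held no shift in scaling and no library that stood apart, so it does not bear on those points. An exact permutation test of 2 against 2 libraries cannot give a P below 0.333. Replicate numbers did not pair the samples. Alternatives were RLE factors, library size alone, no filter, DESeq2 1.42.0, limma 3.58.1 on log2(FPKM + 1) or log2(FPKM + 0.1), an adjusted P of at most 0.001, a replicate block, only the 4 B104 libraries, each library left out, and thinned W22 and DH4866 libraries. Leaving out organelle-described rows was added after seeing the data. Counting intervals and floors cover counting error only.

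Lists were drawn from the deposited descriptions, KEGG names and RefSeq synonyms. The members and lists were chosen with earlier results of these data known, and the list for senescence was divided into chlorophyll breakdown and autophagy once the descriptions were read. Genes were named from the 12 largest rises and falls at 20 CPM or more, the 3 largest of each direction and the highest FPKM in each list (5 CPM or more), the cell markers, and the 3 largest differences in response of each sign. Not every gene so named is described. Malate synthase, AGA1, cysteine protease 1, mlg3 and Lea5 were chosen after their values were seen. Columns of the authors' own comparisons were not used.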

Additional observations from a re-analysis of the deposited data

Results flagged for a closer look

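The drought response of B104 differed from that of the other lines by a test of the difference itself, in 771 genes higher and 709 lower against ZmNF-YB16 OE, 3995 and 5010 against W22, and 3764 and 4677 against DH4866. Among the genes named, the difference in log2 fold change from ZmNF-YB16 OE was 6.95 for GRMZM2G078472, 5.75 for GRMZM2G078725, 0.73 for GRMZM2G079440, 5.60 for GRMZM2G096475, 1.11 for GRMZM2G099003, -6.51 for GRMZM2G325477, -8.01 for GRMZM2G334216, 6.27 for GRMZM2G358076 and -8.23 for GRMZM2G427369. Against W22 it was 12.41 for GRMZM2G041493, 1.59 for GRMZM2G053669, 8.16 for GRMZM2G056369, -11.65 for GRMZM2G069141, -11.25 for GRMZM2G071808, 12.42 for GRMZM2G078472, -4.08 for GRMZM2G083841, 15.16 for GRMZM2G098875 and -12.71 for GRMZM2G140223. Against DH4866 it was 1.71 for GRMZM2G053669, -4.19 for GRMZM2G083841, 11.70 for GRMZM2G098875, 13.64 for GRMZM2G121928, 12.85 for GRMZM2G125747, -11.69 for GRMZM2G125823, -12.24 for GRMZM2G140223 and -11.93 for GRMZM5G884960. Where a group had counts at or near 0, such a fitted value depends on the prior count and sets no size. The sizes of the differences of GRMZM2G427369 and GRMZM5G884960 rest on normal replicate 2 of B104, which had 1843 and 65.6 CPM where normal replicate 1 had 19.2 and 0.736 in the respective fits. Without that library the differences were -2.64 (adjusted P = 6.89e-05) and -6.65 (adjusted P = 0.085), and without drought replicate 1 of DH4866 that of GRMZM5G884960 was -10.59 (adjusted P = 0.163). The difference of GRMZM2G334216 was -1.25 without drought replicate 2 of the OE line (adjusted P = 1). That of GRMZM2G053669 from DH4866 was 1.61 after thinning to the B104 depth (adjusted P = 0.0837), no longer past the threshold.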

How the results depend on the processing

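For B104, RLE factors, no filter, DESeq2, the 4 B104 libraries alone and the omission of organelle-described rows kept the counts of DEGs within 1.5 times, and limma on log2(FPKM + 1) found 1626 falls among all genes and 251 among list members. Leaving out 1 library gave 2468 to 2642 rises and 2698 to 2758 falls, with 372 to 384 and 379 to 392 among list members. For the difference from ZmNF-YB16 OE this gave 640 to 774 genes higher and 567 to 670 lower in B104, for W22 3757 to 3865 and 4554 to 4860, and for DH4866 3482 to 3637 and 4169 to 4601. DESeq2 called 430 higher and 380 lower against ZmNF-YB16 OE, and an adjusted P of at most 0.001 called 347 and 273. With library size alone 6777 were higher and 3332 lower against W22, and 5737 were higher against DH4866. limma found 2694 lower against W22 and 2723 against DH4866, and an adjusted P of at most 0.001 left 2460 higher against DH4866. The causes were not tested, apart from the shift of the median of all genes by 0.29 in B104 with library size alone. With the replicate number as a block, 2626 genes rose and 2834 fell in B104, 758 and 739 differed from ZmNF-YB16 OE, 3912 and 4960 from W22, and 3691 and 4637 from DH4866. The deviations of same-numbered B104 libraries correlated at -0.017, so the pairing rests on a number only. The one direction reversed for a gene named in the text was that of the plastid copy GRMZM5G884960, whose change of -5.29 was 0.10 without normal replicate 2 and -10.79 without drought replicate 1. Depth limits genes below 0.508 to 0.988 TMM-normalized CPM, where 3 counts lie.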
